A study of Homo sapiens with 36 samples.

Results

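The cholesterol and fatty acid synthesis genes described here were followed across neuronal induction of human cells with and without edits of RAI1. They are SREBF2, INSIG1, HMGCS1, IDI1, SQLE, DHCR7, FASN and SCD. They were taken by symbol from the deposited gene tables, where 8 of 62710 genes matched, 1 identifier for each symbol. The study sequenced ribosomal RNA-depleted total RNA from H9, an established human embryonic stem cell line, while doxycycline drove NGN2, a proneural transcription factor that turns stem cells into excitatory neurons. Cells of 3 genotypes were sampled on days 0, 3 and 7 of induction: WT, HET labelled as heterozygous for RAI1, and KO labelled as a RAI1 knockout. Each of the 9 groups of genotype and day held 4 libraries that the labels call biological replicates, 36 libraries in all, under 1 batch label. All groups share the H9 background and the NGN2 induction. The labels do not name the edit or the number of clones behind a genotype, nor say whether replicates came from separate inductions, so p-values measure the spread between these cultures. They describe mTeSR Plus medium for the stem cell lines and Neurobasal-A with B27, GDNF, NT3 and CultureOne for differentiation, so changes of day and of medium cannot be told apart. RAI1 encodes a chromatin-associated regulator whose loss of a copy causes Smith-Magenis syndrome, in which weight gain is common.

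Cells make cholesterol from acetyl-CoA through the mevalonate pathway, and the transcription factor SREBP2, encoded by SREBF2, raises the genes of that pathway when sterols in the endoplasmic reticulum run low. INSIG1 holds the SREBP precursor and its escort SCAP in the endoplasmic reticulum when sterols are plentiful, and is itself a target of SREBPs. HMGCS1 (cytosolic HMG-CoA synthase) and IDI1 (isopentenyl diphosphate isomerase) act in the mevalonate steps, SQLE (squalene epoxidase) and DHCR7 (7-dehydrocholesterol reductase, which forms cholesterol) act in the sterol steps. FASN builds palmitate and SCD desaturates the saturated chains, and both respond mainly to SREBP1. The brain relies on its own cholesterol, since lipoproteins of the blood do not cross into it.

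SREBPs bind sterol regulatory elements, often beside binding sites of NF-Y and SP1, so the stretch before the start site is shown for 3 genes: the regulator SREBF2, HMGCS1, which varied most over the libraries, and SCD of the fatty acid branch. Each is the part of the 250 bases before a RefSeq start (GRCh38.p14) that also lies before the GENCODE start, read 5′ to 3′ on the gene's own strand: SREBF2 at chr22:41832855-41833078 on the plus strand, HMGCS1 at chr5:43313513-43313662 on the minus strand and SCD at chr10:100346983-100347123 on the plus strand. Capitals mark matches on either strand to TCACNCCAC (the sterol regulatory element core), CCAAT (the NF-Y box) and GGGCGG (the SP1 box).
SREBF2: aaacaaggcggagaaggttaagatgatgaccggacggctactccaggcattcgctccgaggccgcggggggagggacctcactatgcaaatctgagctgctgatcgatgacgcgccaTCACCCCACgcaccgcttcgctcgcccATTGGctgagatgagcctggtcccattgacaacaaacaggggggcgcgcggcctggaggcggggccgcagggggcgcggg
HMGCS1: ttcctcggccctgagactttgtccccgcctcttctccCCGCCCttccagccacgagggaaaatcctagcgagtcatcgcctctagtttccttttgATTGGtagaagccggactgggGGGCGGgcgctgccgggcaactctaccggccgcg
SCD: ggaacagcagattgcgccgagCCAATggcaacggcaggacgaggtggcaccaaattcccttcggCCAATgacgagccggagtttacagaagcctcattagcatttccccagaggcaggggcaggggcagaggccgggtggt
The SREBF2 stretch holds the sterol element core once, as TCACCCCAC, starting 133 bases before the RefSeq start, with ATTGG, the reverse of the NF-Y box, 106 bases before it. HMGCS1 holds ATTGG at 155 bases and SP1 boxes, on either strand, at 213 and 134 bases before its start. SCD holds CCAAT at 229 and 186 bases.

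Of the 8 genes, 6 had an entry in the RefSeq promoter table, and SQLE and FASN did not. Over windows from 250 bases before to 50 after each start, the 6 genes had 10 windows, since some have several starts. The sterol element core was found in 1 of the 10, and in 1.13% of 35116 windows of that length in the table. CCAAT was found in 7 of the 10 (34.6% of all windows) and GGGCGG in 9 of the 10 (45%), each in at least 1 window of all 6 genes. These motifs were searched on both strands, and a match is a run of letters, not a binding site.

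The libraries held 23.9 to 56.7 M counts. The signal recognition particle RNAs RN7SL1 and RN7SL2 with RMRP, RPPH1 and RN7SK, together called the 5 small structural RNAs below, took 4.02% to 6.45% of a library at day 0, 14.5% to 25.6% in WT at day 7, and 2.84% to 27.5% in HET at day 7, where replicate 1 had 27.5%. Values below are CPM after TMM scaling, which allow a gene to be compared between libraries, or, where genes are compared with each other, TPM per length rescaled without those 5 RNAs. In these bulk samples fewer cells of a type and less RNA per cell cannot be told apart. At day 0, labelled iNeuron like the other days, the 6 markers of pluripotent cells summed to 1720 to 2299 TPM in WT and the 10 neuronal markers to 191 to 417. By day 7 the neuronal sum was 4552 to 10593 in WT, and TDGF1 and NANOG were at 3 counts or fewer in every WT library. WT day 7 replicate 1 stood apart, with a neuronal sum of 4552 against 8794 to 10593 in the other WT libraries and a dividing-cell sum of 157 against 26.9 to 79.9. RAI1, the targeted gene, was at 33.5 ± 8.26 CPM in WT, 38.1 ± 7.84 in HET and 37.1 ± 12.3 in KO at day 0 (SD, n = 4), and at 52.4 ± 15.3, 73.3 ± 15.7 and 84.7 ± 14.2 at day 7. It was higher in KO than in WT at day 7 (log2 0.69, SE 0.22, edgeR adjusted p = 0.0296) and not called in KO at day 0 or 3 or in HET on any day. Without the site of the edit this level does not check the labels, so directions follow the labels.

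**Figure D1:**
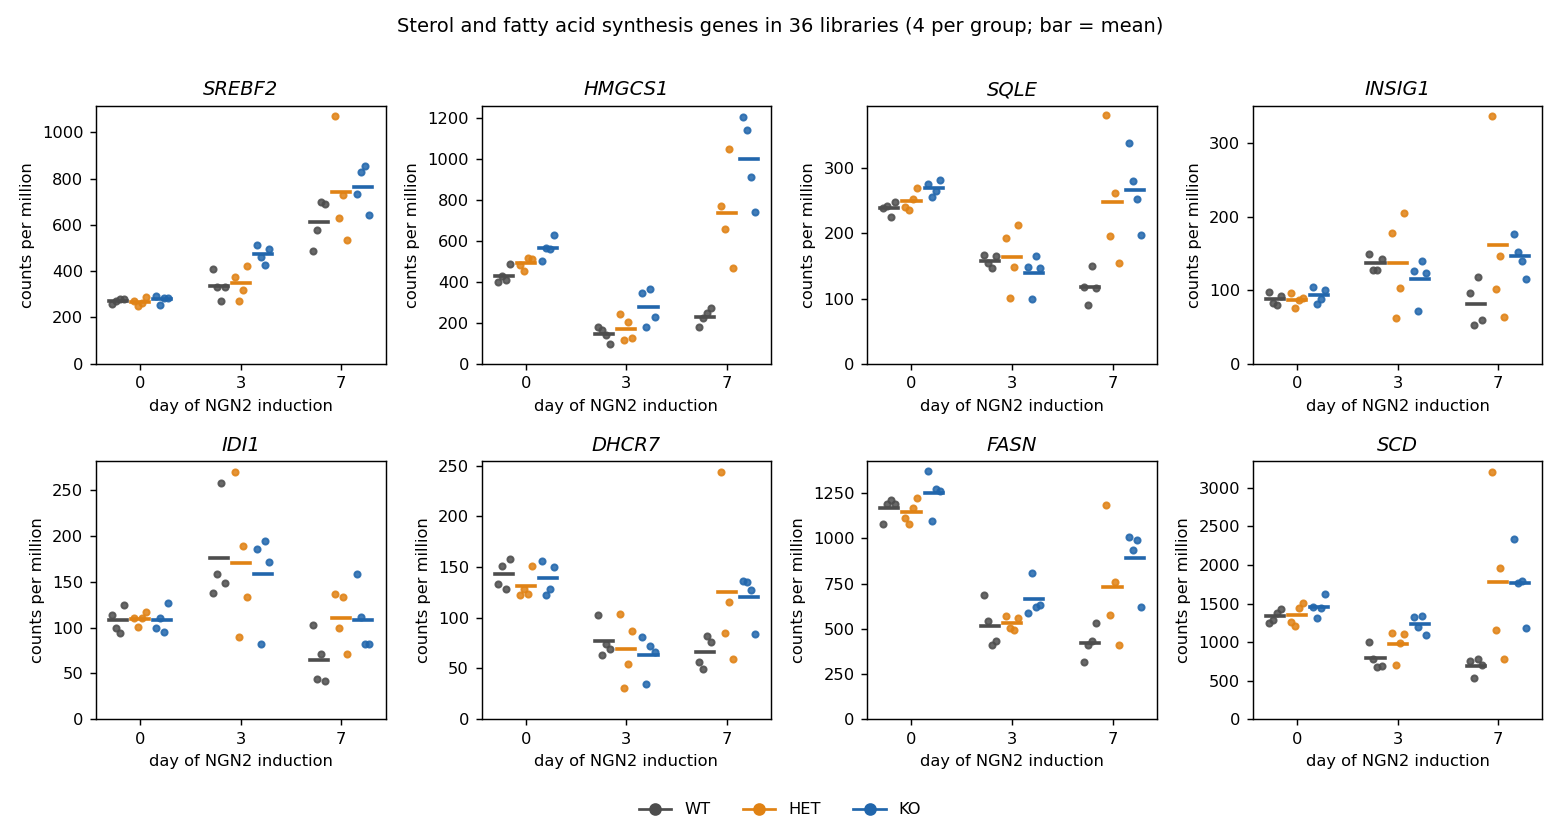
CPM (TMM-scaled counts) of each of the 8 genes (y axis, linear from 0) against the day of NGN2 induction (x axis) for WT, HET and KO; points are single libraries, 4 per group, and bars are group means. The WT means of HMGCS1, SQLE, FASN and SCD are lower on days 3 and 7 than on day 0, while most HET and KO libraries of day 7 lie above the WT libraries.

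In WT, SCD had the highest mean of the 8 genes per length on all 3 days, without overlap with the next gene at day 0 but overlapping IDI1 at day 3 and SREBF2 at day 7. At day 0 its rescaled TPM was 477 ± 33.8 (SD, n = 4), followed by HMGCS1 at 332 ± 30.1 and FASN at 289 ± 15.5, with HMGCS1 and FASN overlapping. SQLE (162 ± 5.85), DHCR7 (114 ± 8.19), SREBF2 (114 ± 8.56), IDI1 (103 ± 13.4) and INSIG1 (69.5 ± 6.38) followed, and DHCR7, SREBF2 and IDI1 overlapped in that order. At day 7 SREBF2 at 213 ± 32.7 overlapped both SCD at 217 ± 14.7 and HMGCS1 at 158 ± 26.9. In KO at day 7 the order was HMGCS1 at 704 ± 124, SCD at 664 ± 170.3, SREBF2 at 317 ± 35.9 and FASN at 236 ± 44.7, and the first of these 4 overlapped the second. In HET at day 7 each gene overlapped the next, from SCD at 652 ± 298 down to DHCR7 at 105 ± 53.2.

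The WT time course describes these genes during induction without the edit. From day 0 to day 3, 5 of the 8 fell and 2 rose by edgeR's quasi-likelihood test with Benjamini-Hochberg adjustment over all genes tested (adjusted p under 0.05), the rule used for every call below. Most genes changed in this interval: 60.0% of the 22268 tested were called. The synthesis enzymes HMGCS1, FASN, DHCR7, SCD and SQLE fell, the isomerase IDI1 and the retention factor INSIG1 rose, and SREBF2 was not called. From day 3 to day 7, 2 rose and 3 fell of the 8, against 46.2% of all genes called.

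HMGCS1 (ENSG00000112972, chromosome 5, 43289395 to 43313512 on the minus strand in GRCh38, per GENCODE 29) was at 401, 428, 409 and 485 CPM in the 4 WT libraries of day 0. At day 3 it was at 180.3, 163, 141 and 96.7 CPM, and at day 7 at 178, 225, 246 and 274. Days 0 and 3 did not overlap, while days 3 and 7 did. It fell 2.97-fold to day 3 (log2 -1.57, SE 0.19, edgeR adjusted p = 6.67e-06) and rose 1.59-fold from there to day 7 (log2 0.67, SE 0.19, edgeR adjusted p = 0.00869; 0.593 on log2(TPM + 1)).

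FASN (ENSG00000169710, chromosome 17, 82078333 to 82098332, minus strand) was at 1078, 1193, 1216 and 1193 CPM in WT at day 0 and at 685, 546, 412 and 430.1 at day 3. All libraries of day 3 lay below all of day 0, a 2.26-fold fall (log2 -1.18, SE 0.19, edgeR adjusted p = 8.78e-05). SCD (ENSG00000099194, chromosome 10, 100347124 to 100364834, plus strand) was at 1254, 1288, 1381 and 1435 CPM and then at 1006, 786, 680.1 and 684, again without overlap (log2 -0.77, SE 0.16, edgeR adjusted p = 0.000784). The sterol enzymes fell too: SQLE from 238 ± 9.73 to 158 ± 9.47 CPM (SD, n = 4; log2 -0.60, SE 0.14, edgeR adjusted p = 0.00173) and DHCR7 from 143 ± 14.3 to 77.5 ± 17.6 (log2 -0.88, SE 0.19, edgeR adjusted p = 0.00086). From day 3 to day 7 SQLE fell further, to 118 ± 24.2 CPM (log2 -0.42, SE 0.14, edgeR adjusted p = 0.021), which did not pass without WT day 7 replicate 2 (0.0681). FASN at 424 ± 89.7, SCD at 696 ± 110.4 and DHCR7 at 66.0 ± 15.4 CPM at day 7 did not pass against day 3.

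IDI1 (ENSG00000067064, chromosome 10, 1039152 to 1049170, minus strand) was at 114, 99.2, 94.6 and 124 CPM in WT at day 0, 138, 158, 258 and 148 at day 3 and 102, 43.8, 71.4 and 41.2 at day 7. All day 3 libraries lay above all of both other days. Its rise to day 3 (log2 0.70, SE 0.27, edgeR adjusted p = 0.0351) did not pass without day 3 replicate 3, the highest library (0.152), or without day 0 replicate 1, 2 or 3. Its fall to day 7 was 2.73-fold (log2 -1.45, SE 0.27, edgeR adjusted p = 0.000546). INSIG1 (ENSG00000186480, chromosome 7, 155297776 to 155310235, plus strand) followed the same shape, at 88.1 ± 7.98, 137 ± 11 and 81.7 ± 31.4 CPM on the 3 days (log2 0.63, SE 0.21, edgeR adjusted p = 0.0172 for the rise, log2 -0.75, SE 0.21, edgeR adjusted p = 0.00877 for the fall). The rise of INSIG1 did not pass without WT day 0 replicate 3 (0.0516). Both rises depended on the scale: on log2(TPM + 1), where the median of all genes was -0.38, INSIG1 had a log2 difference of -0.42 and IDI1 of -0.13, neither called. With the share of the 5 small structural RNAs as a covariate IDI1 had -0.029.

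SREBF2 (ENSG00000198911, chromosome 22, 41833079 to 41907308, plus strand) was the only one of the 8 whose WT mean was highest at day 7, at 272 ± 9.09, 336 ± 58.0 and 614 ± 102 CPM on days 0, 3 and 7. The difference at day 3 was not called (log2 0.30, SE 0.15, edgeR adjusted p = 0.101; 0.0401 without day 3 replicate 3), and on log2(TPM + 1) it was -0.69. From day 3 to day 7 it rose 1.83-fold (log2 0.87, SE 0.15, edgeR adjusted p = 0.000306), which was not called on log2(TPM + 1) (adjusted p 0.322). The counts of genes on the opposite strand or inside SREBF2 came to 0.452% of its own, for IDI1 to 3.25% and for DHCR7 (ENSG00000172893, chromosome 11, 71428193 to 71452868, minus strand) to 2.65%. Whether strand was used in counting is not given in the sources used here, so shares of that size are uncertain.

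Genotypes were compared within a day to see how these genes differ with RAI1 status. At day 7 in KO, HMGCS1, SQLE, FASN and SCD were higher than in WT, by 4.33-, 2.26-, 2.10- and 2.55-fold, and the other 4 did not pass. In HET, HMGCS1, SQLE and SCD were higher, by 3.18-, 2.09- and 2.55-fold. All 8 log2 differences were positive in both comparisons, which share the WT libraries. Of all genes 32.6% were called in KO (17.0% higher) and 14.4% in HET (8.31% higher), so that 4 of 8 and 3 of 8 members called higher stand against those shares. The median of the 8 log2 differences was 0.97 in KO and 0.95 in HET, beside -0.04 and 0.00 over all genes tested.

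HMGCS1 showed the largest difference of the 8. At day 7 the 4 WT libraries had 178, 225, 246 and 274 CPM, the HET libraries 770.5, 657, 1047 and 469, and the KO libraries 1203, 1139, 912 and 739. Every HET and KO library lay above every WT library. The difference from WT was called for KO (log2 2.11, SE 0.25, edgeR adjusted p = 0.000108) and HET (log2 1.67, SE 0.25, edgeR adjusted p = 0.00139), and in both cases in all 12 fits without 1 library. IDI1, the other mevalonate enzyme, was at 102, 43.8, 71.4 and 41.2 CPM in WT, 137, 99.5, 133 and 70.9 in HET and 158, 112, 82.2 and 81.8 in KO. These groups overlapped and neither difference passed (log2 0.75, SE 0.32, edgeR adjusted p = 0.0861 in KO; log2 0.76, SE 0.32, edgeR adjusted p = 0.124 in HET), but both did without WT day 7 replicate 1 (0.0228 and 0.0432).

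SQLE (ENSG00000104549, chromosome 8, 124998497 to 125022283, plus strand) was at 118, 90.1, 149 and 116 CPM in WT, 381, 195, 262 and 155 in HET and 338, 279.6, 252 and 197 in KO at day 7. The WT libraries lay below all others. Both differences were called (log2 1.17, SE 0.26, edgeR adjusted p = 0.00494 in KO; log2 1.06, SE 0.26, edgeR adjusted p = 0.0175 in HET), the second not without WT day 7 replicate 2 (0.0551). DHCR7 was at 56.7, 49.5, 82.1 and 75.6 CPM in WT, 244, 84.6, 115 and 59.0 in HET and 137, 135, 128 and 83.8 in KO. The KO libraries did not overlap WT, HET did, and neither difference was called (log2 0.88, SE 0.35, edgeR adjusted p = 0.0748 in KO; log2 0.92, SE 0.36, edgeR adjusted p = 0.0995 in HET). Without HET replicate 1, which had 244 CPM, the KO comparison passed (0.0112), as the 3 genotypes of a day were fitted together. It also passed without HET replicate 4 (0.0422), as did the HET comparison (0.0340).

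SCD was at 756, 539, 787 and 700.4 CPM in WT at day 7, 3210.4, 1162, 1961 and 782 in HET and 2338, 1772, 1787 and 1183 in KO. All KO libraries lay above WT, and HET ranged from 782 CPM, within the WT range, to 3210.4. The differences were called (log2 1.35, SE 0.36, edgeR adjusted p = 0.0134 in KO; log2 1.35, SE 0.36, edgeR adjusted p = 0.026 in HET). The KO call was lost without KO replicate 1 (0.0515), and the HET call without any 1 of the 4 WT libraries or without HET replicate 3 (up to 0.0746). FASN was at 314, 412, 435 and 533 CPM in WT, 1184, 578, 761 and 408 in HET and 1007, 938, 992 and 621 in KO. KO did not overlap WT and was called (log2 1.07, SE 0.29, edgeR adjusted p = 0.0144), in all 12 fits without 1 library but not on log2(TPM + 1) (0.0675). HET overlapped and was not called (log2 0.78, SE 0.29, edgeR adjusted p = 0.0912), though it passed without HET replicate 4 (0.0331).

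Neither regulator was called. SREBF2 was at 486, 579, 700.4 and 691 CPM in WT, 1073, 628, 731 and 536 in HET and 734, 827, 855 and 641 in KO, with overlap between all 3. Its difference was not called in KO (log2 0.32, SE 0.22, edgeR adjusted p = 0.28) or HET (log2 0.27, SE 0.22, edgeR adjusted p = 0.452), and without HET replicate 1 the HET difference was 0.01. INSIG1 was at 96.6, 52.3, 119 and 59.1 CPM in WT, 337, 101, 146 and 63.3 in HET and 177, 153, 139 and 116 in KO. The HET libraries overlapped both other genotypes, and KO overlapped WT by 1 library (log2 0.84, SE 0.42, edgeR adjusted p = 0.14 in KO; log2 0.98, SE 0.42, edgeR adjusted p = 0.137 in HET). The KO difference passed without HET replicate 1 (0.0389) and the HET difference without HET replicate 4 (0.0485).

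At day 7 the SD over the libraries was largest in HET for 7 of the 8 genes, all but IDI1. Replicate 1 was the highest of its group for 7 of the 8 genes and replicate 4 the lowest for 8 of 8, and the same numbers held the same places in KO. Without HET replicate 1 the HET comparison called HMGCS1, SCD and SQLE, 3 of 8 as with it. In that fit 34.6% of all genes were called, against 14.4% with it. The median over the 8 genes was 0.52 there, against 0.95 with HET replicate 1. Without WT replicate 1, the library with the lowest neuronal sum, 5 genes were called in KO (IDI1 added) and 3 in HET (IDI1 in place of SCD). Over the fits without 1 library the count ran from 3 to 6 in KO and from 1 (without WT replicate 2) to 6 (without HET replicate 4) in HET. The share of all genes called ran from 23.4% to 44.0% in KO and from 7.63% to 34.6% in HET over these fits.

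Markers of other cell states moved with genotype at day 7. The 10 markers of dividing cells summed to 26.9 to 157 rescaled TPM in WT, 17.3 to 26.1 in HET and 13.5 to 16.5 in KO, and 10 of 10 were lower in each. The 10 neuronal markers summed to 4552 to 10593 in WT, 10655 to 15335 in HET and 12311 to 15384 in KO, and 6 of 10 were higher in each. The 6 astrocyte markers summed to 9.92 to 18.5 in WT, 0.81 to 4.62 in HET and 2.03 to 3.63 in KO. Of the 4 tested, 2 were lower and 1 higher in KO, and 1 was lower in HET. The 6 pluripotent markers summed to 42.6 to 55.9 in WT, 39.8 to 100.03 in HET and 127 to 165 in KO. Only 2 of these 6 were tested, with 1 higher and 1 lower in KO and 1 higher in HET. The 8 markers of the oligodendrocyte lineage overlapped at 140 to 341, 235 to 299 and 119 to 300.0, with MOG and MAG at 3 counts or fewer in all 3. The 6 mesenchymal markers summed to 9.49 to 12.5 in WT, 1.00 to 10.96 in HET and 0.98 to 1.93 in KO, with TWIST1 at 3 counts or fewer in all 3. The part of these cell states in the results was not tested. The share of small structural RNAs was 14.5% to 25.6% in WT and 9.90% to 15.8% in KO. With that share as a covariate 6 of the 8 genes were called in KO, against 25.1% of all genes in that fit, and 5 in HET, against 10.7%.

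**Figure D2:**
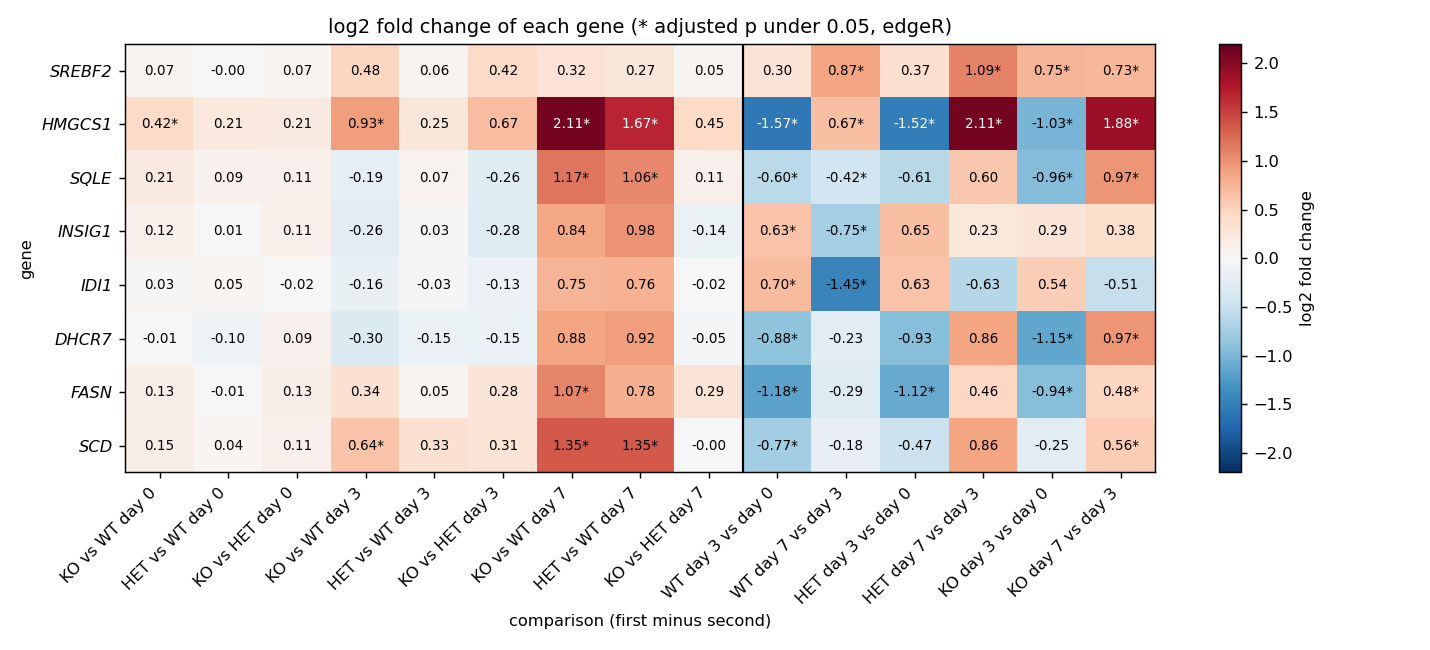
log2 fold changes (first minus second group) of the 8 genes in the 9 comparisons of genotypes within a day, left of the line, and the 6 of days within a genotype, right of it; colour runs from blue (lower) to red (higher) and an asterisk marks an edgeR adjusted p under 0.05. The day 7 columns of KO and HET against WT are positive for all 8 genes, with HMGCS1 at 2.11 and 1.67.

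Earlier in the induction fewer of the 8 genes were called against WT than at day 7, as were fewer of all genes. At day 3, HMGCS1 and SCD were higher in KO than in WT (2 of 8, against 21.6% of all genes) and none was called in HET (0 of 8 in edgeR, against 3.28% of all genes, 0 of 8 in DESeq2, and 0 of 8 at an unadjusted p under 0.05). Same-numbered HET and WT replicates of day 3 deviated together (r 0.104 to 0.614), which these fits leave out. With the replicate number as a block, 8.79% of all genes were called in HET, and the median log2 difference of the 8 was 0.03. HMGCS1 was at 180.3, 163, 141 and 96.7 CPM in WT, 242, 116, 202 and 125 in HET and 343, 178, 367 and 228 in KO. The lowest KO library lay below the highest WT library, and the difference was 1.90-fold (log2 0.93, SE 0.30, edgeR adjusted p = 0.0415). SCD was at 1006, 786, 680.1 and 684 CPM in WT, 1121, 709, 983 and 1104 in HET and 1328, 1202, 1333 and 1097 in KO. KO lay above WT without overlap (log2 0.64, SE 0.20, edgeR adjusted p = 0.0349). Each call was lost in 6 of the 12 fits without 1 library: HMGCS1 without any WT library or KO replicate 1 or 3 (up to 0.115), and SCD without WT replicate 2, 3 or 4 or KO replicate 1, 2 or 3 (up to 0.0902). Both were lost with library size alone (0.0593 for HMGCS1, 0.0579 for SCD) and on log2(TPM + 1) (0.174 and 0.166).

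SREBF2 did not overlap between KO and WT at day 3 either, at 515, 463, 425 and 496 CPM in KO against 411, 332, 269 and 333 in WT, but was not called (log2 0.48, SE 0.18, edgeR adjusted p = 0.0805; 0.0492 without HET replicate 4). FASN was at 663 ± 99.3 CPM in KO and 518 ± 126 in WT (log2 0.34, SE 0.19, edgeR adjusted p = 0.22). The other 4 had log2 differences of -0.30 (DHCR7) to -0.16 (IDI1), and their sign flipped on log2(TPM + 1), where the median of all genes was 0.20. The median over the 8 was 0.09, beside -0.05 over all genes. Neuronal markers were already apart at day 3, summing to 1077 to 1392 rescaled TPM in WT, 1655 to 3670 in HET and 3935 to 9024 in KO (9 of 10 higher in KO), and dividing-cell markers to 744 to 1449, 877 to 1379 and 428 to 980 (6 of 10 lower in KO). Their part in the result was not tested.

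At day 0 HMGCS1 alone was called, in KO (1 of 8, against 2.08% of all genes). It was at 401, 428, 409 and 485 CPM in WT, 480.0, 453, 516 and 511 in HET and 500.0, 565, 562 and 626 in KO. All KO libraries lay above WT, by 1.33-fold (log2 0.42, SE 0.08, edgeR adjusted p = 0.0145), but not without WT replicate 1 (0.0573) or 3 (0.0633). SQLE did not overlap between KO and WT either, at 269 ± 11.4 and 238 ± 9.73 CPM, and was not called (log2 0.21, SE 0.05, edgeR adjusted p = 0.0791), but was with the replicate number as a replicate block (0.0347), for which 2 of the 8 passed, against 4.70% of all genes in that fit. The other 6 log2 differences were between -0.01 and 0.15. In HET none of the 8 passed in edgeR or DESeq2, where edgeR called 1.63% of all genes, and HMGCS1 alone had an unadjusted p under 0.05, with differences between -0.10 and 0.21.

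KO and HET were also compared directly. None of the 8 genes was called on any day in edgeR or DESeq2, with 1, 2 and 0 at an unadjusted p under 0.05 on days 0, 3 and 7, and the share of all genes called was 0.856%, 4.35% and 1.40%. At day 7 the log2 difference was 0.45 for HMGCS1 (SE 0.24, edgeR adjusted p = 0.449), 0.29 for FASN (SE 0.29) and between -0.14 (INSIG1, SE 0.42) and 0.11 (SQLE, SE 0.26) for the rest. At day 3 it was 0.67 for HMGCS1 (SE 0.30), called with the replicate number as a replicate block (0.0376; 12.7% of all genes in that fit), and 0.42 for SREBF2 (SE 0.18), whose KO libraries lay above all HET libraries, as did those of FASN (0.28). Signs depended on the setting: at day 7, 4 of the 8 differences were positive, 1 on log2(TPM + 1) and 7 with the replicate block, and at day 3, 4 were positive and 8 on log2(TPM + 1). With standard errors of this size, these values do not show that the genotypes are alike.

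The courses of the edited lines were described in the same way. In HET, HMGCS1 (log2 -1.52, SE 0.28, edgeR adjusted p = 0.000595) and FASN (log2 -1.12, SE 0.26, edgeR adjusted p = 0.0035) fell from day 0 to day 3 (2 of 8, against 48.3% of all genes), and HMGCS1 (log2 2.11, SE 0.28, edgeR adjusted p = 7.26e-05) and SREBF2 (log2 1.09, SE 0.22, edgeR adjusted p = 0.00156) rose from day 3 to day 7 (2 of 8, against 41.2%). Without HET day 7 replicate 4, 6 of 8 rose from day 3 to day 7, SQLE, DHCR7, FASN and SCD added. Over the fits of that interval without 1 library, 34.2% to 47.8% of all genes were called. Without HET day 7 replicate 1, 4 of 8 fell to day 3, SQLE and DHCR7 added, against 54.4% of all genes in that fit. In KO 4 fell to day 3, DHCR7, HMGCS1, SQLE and FASN, by 0.94 to 1.15 on the log2 scale, and SREBF2 rose (log2 0.75, SE 0.14, edgeR adjusted p = 0.000298), which is 5 of 8 against 59.3% of all genes. From day 3 to day 7, 6 of 8 rose in KO, against 47.8% of all genes called. HMGCS1 went from 343, 178, 367 and 228 to 1203, 1139, 912 and 739 CPM, a 3.69-fold rise without overlap (log2 1.88, SE 0.24, edgeR adjusted p = 2.08e-05). SQLE (log2 0.97), DHCR7 (0.97) and SREBF2 (0.73) rose without overlap too. SCD (0.56) and FASN (0.48) overlapped between the days. The SCD call was lost without KO day 3 replicate 4 or day 7 replicate 1 (0.0933) or 3, and the FASN call without any of KO day 3 replicates 1, 3 and 4 and day 7 replicates 1, 2 and 3 (up to 0.105). IDI1 and INSIG1 were not called in KO in either interval, but without KO day 3 replicate 2 IDI1 passed in both (0.00692 and 0.0117) and INSIG1 in the first (0.0166).

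The interaction of genotype with day, fitted on all 36 libraries, tests whether the course differed from WT. From day 3 to day 7 it was called for HMGCS1 and SQLE in KO (2 of 8, against 18.5% of all genes, 7.60% called higher) and for HMGCS1 and SQLE in HET (2 of 8, against 4.74%, 2.06% called higher). HMGCS1 rose 2.26-fold more in KO than in WT (log2 1.17, SE 0.34, edgeR adjusted p = 0.0125) and 2.7-fold more in HET (log2 1.43, SE 0.34, edgeR adjusted p = 0.00936). SQLE, which fell in WT and rose in KO, differed by 2.55-fold in KO (log2 1.35, SE 0.30, edgeR adjusted p = 0.00145) and 2.03-fold in HET (log2 1.02, SE 0.30, edgeR adjusted p = 0.0425). The HET call of SQLE was lost in 24 of the 36 fits without 1 library (0.0534 to 0.121), among them every day 0 library. None of the 4 passed on log2(TPM + 1) (0.156 to 0.42). In the KO comparison 5 of 8 passed without HET day 7 replicate 1, and in HET 4 of 8 without HET day 7 replicate 4. The calls over all genes moved as well, in HET from 1174 to 2353 in the fit without 1 library that called most. In KO they were 4588, and no alternative called more than 5738. The shares in the 2 fits named here are not given. Such gains therefore need not be particular to the 8 genes. For the other 6 genes the difference lay between -0.18 (SREBF2) and 1.16 (DHCR7) in KO and between 0.23 and 1.10 in HET, not called. The median of the 8 was 0.99 in KO and 1.00 in HET, beside -0.10 and -0.02 over all genes. From day 0 to day 3 none of the 8 was called in KO or in HET, in edgeR or DESeq2 (8.55% and 0.271% of all genes called in edgeR). None had an unadjusted p under 0.05 either. The log2 differences ran from -0.35 to 0.55 in KO and from -0.07 to 0.30 in HET, which does not show that the courses are alike.

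Ranked over the 9 groups, few neighbours in a gene's order of mean CPM were separated beyond the spread of the libraries. HMGCS1 ran from KO at day 7 (998 ± 213 CPM) through HET at day 7 (736 ± 242), KO, HET and WT at day 0 (563 ± 51.5, 490 ± 29.3 and 431 ± 37.7), KO at day 3 (279 ± 90.9), WT at day 7 (231 ± 40.6) and HET at day 3 (171 ± 60.9) to WT at day 3 (145 ± 36.1), and only WT at day 0 and KO at day 3 did not overlap as neighbours. SQLE had its gap between WT at day 0 (238 ± 9.73 CPM) and HET at day 3 (164 ± 49.8), and SREBF2 between KO at day 3 (475 ± 39.3) and HET at day 3 (347 ± 66.9). FASN had gaps between HET at day 0 (1147 ± 64.6) and KO at day 7 (890 ± 181), and between KO at day 3 (663 ± 99.3) and HET at day 3 (531 ± 38.9). SCD, from 1779 ± 1073.5 in HET at day 7 to 696 ± 110.4 in WT at day 7, had none, nor had INSIG1 (162 ± 121 in HET at day 7 to 81.7 ± 31.4 in WT at day 7), IDI1 (176 ± 55.8 in WT at day 3 to 64.7 ± 28.6 in WT at day 7) or DHCR7 (143 ± 14.3 in WT at day 0 to 63.5 ± 20.1 in KO at day 3). The highest library exceeded the lowest 12.4-fold for HMGCS1, 7.80-fold for DHCR7, 6.55-fold for IDI1, 6.44-fold for INSIG1, 5.95-fold for SCD, 4.37-fold for FASN, 4.30-fold for SREBF2 and 4.22-fold for SQLE.

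**Figure D3:**
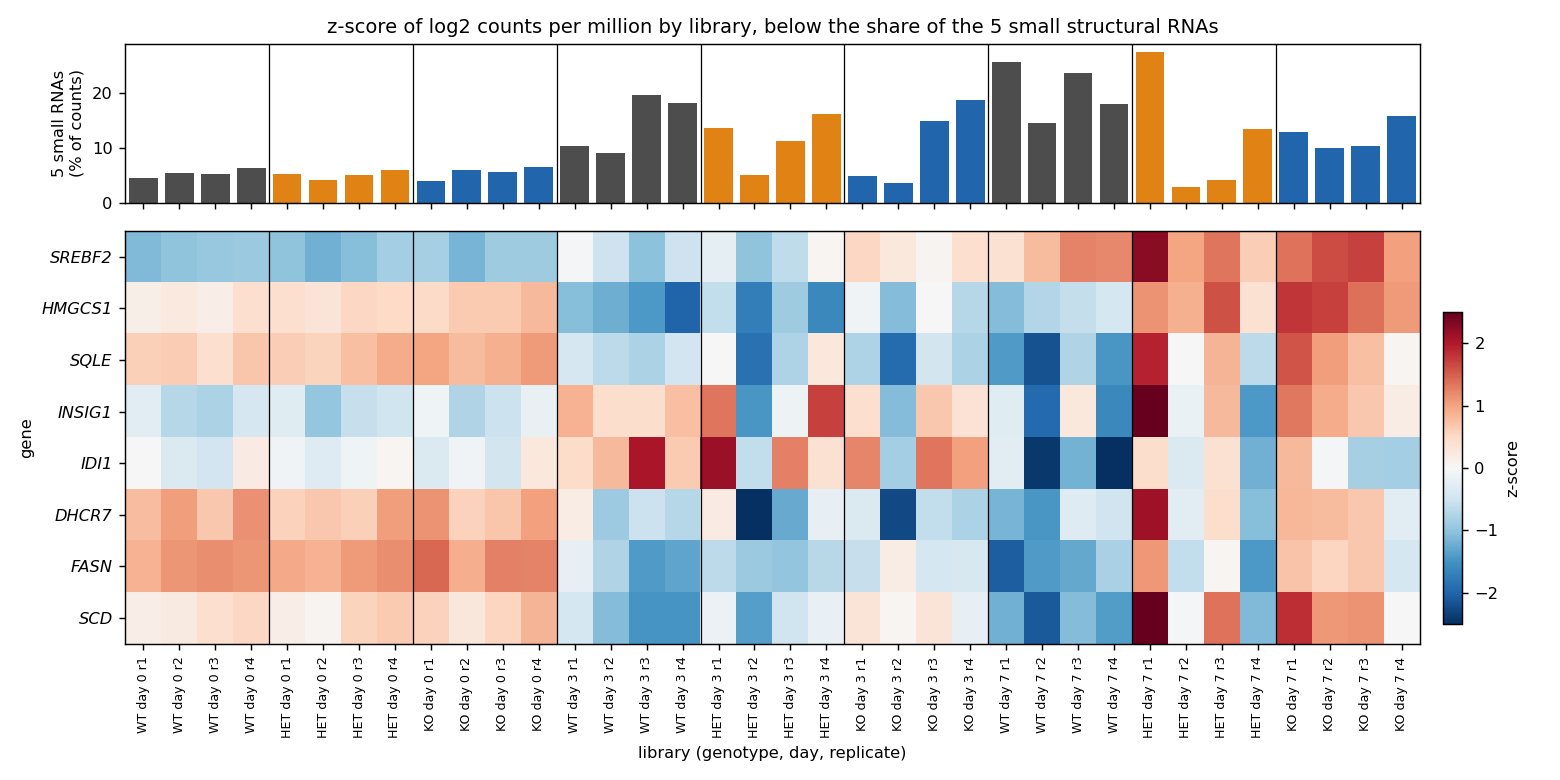
Each of the 36 libraries is a column, grouped by day and genotype; bars on top give the share of counts in the 5 small structural RNAs (%), and colours below give each gene's z-score of log2 CPM over the 36 libraries. HET day 7 replicate 1 has the highest share, 27.5%, and is the highest of its group for 7 of the 8 genes, while the share in KO at day 7 is 9.90% to 15.8%.

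The 8 genes did not follow 1 pattern. Over the 36 libraries, which share groups and depth, log2 CPM of SQLE correlated with DHCR7 at r = 0.93 and with SCD at 0.85, while SREBF2 with FASN gave -0.27 and IDI1 with HMGCS1 -0.13. Deviations from the group means tied SQLE to INSIG1 (0.95), SQLE to DHCR7 (0.93) and DHCR7 to INSIG1 (0.89), with FASN and IDI1 lowest (-0.00). Over 12070 genes with a mean of at least 5 CPM, the 10 most like the mean of the 8 over the 36 libraries included MVD (r = 0.84), EBP (0.79), NFE2L1 (0.76), STARD4 (0.76), LSS (0.75), ACSL3 (0.75), FDPS (0.75) and ENSA (0.75). MVD, FDPS, LSS and EBP are enzymes of cholesterol synthesis. By member, the 3 nearest included NAP1L2 for HMGCS1 (0.94), SQLE for DHCR7 (0.93), DHCR7 for SQLE (0.93), NFE2L1 for SCD (0.88), LPCAT1 for FASN (0.89), FDFT1 for INSIG1 (0.79) and ASB3 for IDI1 (0.79). SREBF2 stood with CLSTN3 (0.96), PRRT2 (0.96) and ABCB9 (0.96), none of them on the lipid lists.

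The rest of the pathway was described with 5 lists of 55 genes, the 8 included. At day 7 the other enzymes of the 3 synthesis lists were mostly positive in the mutants: of 32 tested, 14 were higher and 1 lower in KO (median log2 0.71) and 10 higher and 1 lower in HET (0.63), against 32.6% and 14.4% of all genes called in either direction. In the mevalonate list all 9 genes had positive differences in both, and 4 were called higher in each. ACAT2, which condenses acetyl-CoA at the head of the pathway, was at 39.4 ± 18.5 CPM in WT, 125 ± 26.5 in HET and 163 ± 49.9 in KO (log2 2.05, SE 0.31, edgeR adjusted p = 0.000432 in KO; 1.66, SE 0.30, 0.00404 in HET). MVD, the mevalonate diphosphate decarboxylase, was higher by 1.304 in KO and 1.47 in HET (log2).

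Of the 13 genes of the sterol list, 7 were called higher in KO and 4 in HET, against 17.0% and 8.31% of all genes. All 13 were positive in both, with medians of 0.88 and 0.77. TM7SF2 (log2 1.44) and MSMO1 (1.40), further enzymes after lanosterol, were higher in KO, and CYP51A1 (1.13) and LSS (1.11) in HET. The fatty acid list was more mixed: of 16 genes, 7 were higher and 1 lower in KO, and 5 higher and 1 lower in HET, with medians of 0.71 and 0.57. In either direction 32.6% of all genes were called in KO and 14.4% in HET. SCD5, another desaturase, was at 18.1 ± 6.91 CPM in WT and 104 ± 43.0 in KO (log2 2.52). ACACB, an acetyl-CoA carboxylase of mitochondria, was lower in KO (-1.79) and HET (-1.11), and ME1, which supplies NADPH, was higher in both (1.37 and 1.32).

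In KO at day 7 the control and export genes were called in both directions, as were all genes tested (32.6% called, 17.0% higher). In HET 14.4% of all genes were called, 8.31% higher. Among the 8 SREBP control genes, INSIG2 was higher (0.71) and MBTPS1, which cleaves the SREBP precursor, lower (-0.40) in KO, and none was called in HET, with medians of 0.17 and 0.25. Of the 9 genes of sterol sensing and export, 3 were higher and 2 lower in KO (median -0.37) and 2 higher and 1 lower in HET (-0.08). ABCG1, a sterol exporter, was higher in KO (2.16) and HET (1.44), CYP46A1, the neuronal cholesterol hydroxylase, higher in both (1.49 and 1.34), and NPC2, a lysosomal sterol carrier, lower in both (-2.07 and -1.71). At day 3, 7 of the 32 other enzymes were higher and 2 lower in KO, with a median of 0.03, against 21.6% of all genes called. At day 3 the same rule named SREBF1, which encodes SREBP1 (log2 1.55, 74.3 ± 23.5 CPM in KO against 25.1 ± 8.01 in WT), ELOVL4 (1.37), TM7SF2 (1.09), SCD5 (0.73) and LSS (0.71), all higher in KO, and ME1, lower (-1.51). From the export list it named the exporters ABCG1 (2.47) and ABCA1 (1.79), higher in KO, and NPC2, lower (-1.48). In the WT course 15 of the 32 fell and 4 rose from day 0 to day 3 (median -0.43), and from day 3 to day 7, 12 fell and 3 rose (-0.14), so that 19 and 15 of 32 were called where 60.0% and 46.2% of all genes were. From day 3 to day 7 in KO, 15 rose and 5 fell (0.47), against 47.8% of all genes called.

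**Figure D4:**
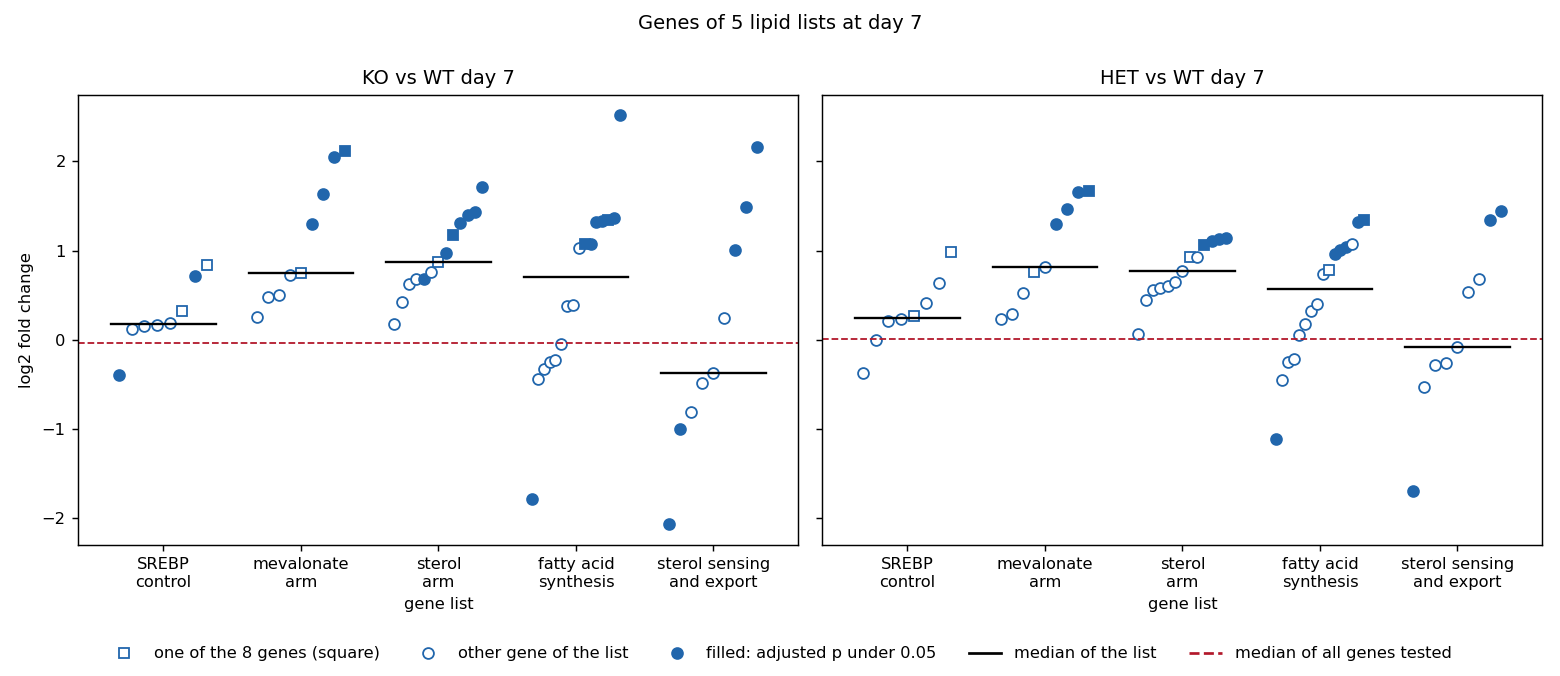
log2 fold changes at day 7 (y axis) of the genes of 5 lists (x axis), KO against WT on the left and HET against WT on the right; squares are the 8 genes, circles other genes, filled symbols have an edgeR adjusted p under 0.05, black bars are list medians and the dashed line is the median of all genes tested. All genes of the mevalonate and sterol lists lie above 0 in both panels, while the export list spreads to both sides.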

How the data were processed

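RNA of 36 libraries was sequenced as 151 bp paired-end reads, and the genes and lists were chosen with earlier results of these data known. Per the submitters' processing notes, reads were handled with cutadapt 4.8, FastQC 0.11.8, MultiQC 1.20, STAR 2.7.8a and RSEM 1.3.3 on GRCh38. The annotation and the use of strand are not given in the sources used here. The authors deposited RSEM expected counts, which are whole numbers in the file and were used as such. The authors also deposited TPM, which is per gene length and has a fixed sum per library, so that 5 abundant small structural RNAs lower all other values. TPM was therefore rescaled without those 5 for levels between genes. Counts of 4 reporter sequences, at most 0.0171% of a library, were left out.

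Counts were tested with edgeR 4.0.16 in R 4.3.3 (quasi-likelihood test, TMM, filterByExpr, Benjamini-Hochberg adjustment over all genes tested, threshold 0.05). Genotypes were compared within a day and days within a genotype, each fit on 12 libraries, and 4 interactions were fitted on all 36, giving 19 comparisons. CPM used TMM factors over the 36 libraries, with a prior count of 2 for log2 values. The test scripts were tested on simulated data. Alternatives were library size alone, DESeq2 size factors, no filter, a replicate block, DESeq2 1.42.0, limma 3.58.1 on log2(TPM + 1), on log2(TPM + 0.1) and on log2(TPM + 1) without the 5 RNAs, all 36 libraries in 1 fit, and leaving out each library. The share of the 5 RNAs as a covariate was added after seeing the data.

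Besides the 8 genes, the text names up to 3 called genes of each list by the size of the change, and the genes most like the 8 by Pearson's r over log2 CPM. A few genes that this rule names are not reported here. Lists cover SREBP control, the mevalonate arm, the sterol arm, fatty acid synthesis, and sterol sensing and export, and marker lists cover pluripotent, dividing, neuronal, astrocyte, oligodendrocyte and mesenchymal cells. Positions are from GENCODE 29 and promoters from RefSeq. Replicate numbers were checked for pairing by the correlation of same-numbered deviations from group means. Every pair was above 0.1 for KO against WT at day 0 (0.137 to 0.335) and HET against WT at day 3 (0.104 to 0.614) and in no other comparison of genotypes.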

Additional observations from a re-analysis of the deposited data

Results flagged for a closer look

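IDI1 in WT day 3 replicate 3, at 258 CPM, stood far above the other 3 libraries of its group, which had 138 to 158. FASN in WT day 0 replicate 1, at 1078 CPM, stood below the other 3, which had 1193 to 1216. These were 2 of 72 groups of 4 libraries examined, and chance flags about 1 in 20, or 3.6.

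The change from day 3 to day 7 differed from WT for HMGCS1 in KO (log2 1.17, edgeR adjusted p = 0.0125) and in HET (log2 1.43, edgeR adjusted p = 0.00936). It also differed for SQLE in KO (log2 1.35, edgeR adjusted p = 0.00145) and in HET (log2 1.02, edgeR adjusted p = 0.0425). All 4 came from the interaction of genotype with day, and both comparisons used the same WT libraries.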

How the results depend on the processing

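Counts are of the 8 genes called, and shares in brackets are of all genes called in the same fit. At day 7 all 8 differences from WT were positive in KO and HET under every alternative, while the count called moved. On log2(TPM + 1) and log2(TPM + 0.1) the median of all genes shifted to 0.18 and 0.37 in KO against WT at day 7, to 0.46 and 0.74 in HET, and to -0.38 and -0.76 in WT from day 0 to day 3. All 8 genes still lay above that median at day 7. For KO against WT at day 7 the count was 4 (32.6%), and 8 on TPM without the small RNAs (30.0%). For HET it was 3 (14.4%), and 5 with the covariate (10.7%) and 7 on log2(TPM + 0.1) (5.80%). It was 7 without the small RNAs (14.8%) and 6 with all 36 libraries (18.9%). For KO at day 3 it was 2 (21.6%), and 0 with library size alone (21.0%) and on both TPM scales (3.78% and 5.78%). With no filter it was 1 (10.8%). For KO at day 0 it was 1 (2.08%), and 2 with the replicate block (4.70%) and with DESeq2 (4.41%). It was 0 on the 3 TPM scales (1.16% to 1.60%) and with all 36 libraries (1.38%). For HET at day 0 it was 0 (1.63%), and 1 with the covariate (1.61%). For KO against HET at day 3 it was 0 (4.35%), and 1 with the replicate block (12.7%).

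For WT from day 3 to day 7 the count was 5 (46.2%), and 3 on both TPM scales (30.2% and 33.5%). For HET from day 0 to day 3 it was 2 (48.3%), and 4 with library size alone (46.9%). It was 4 on the 3 TPM scales too (23.8% to 44.1%), and 5 with the covariate (50.2%). For HET from day 3 to day 7 it was 2 (41.2%), and 5 with the covariate (50.6%). It was 1 on both TPM scales (11.9% and 14.2%) and 6 without the small RNAs (39.4%). For KO from day 3 to day 7 it was 6 (47.8%), and 1 on both TPM scales (20.4% on log2(TPM + 1)). For the change from day 3 to day 7 against WT, KO had 2 (18.5%), and 4 with the replicate block, 5 with the covariate and 0 on both TPM scales. HET had 2 (4.74%), and 1 with no filter, 5 with the covariate and 0 on both TPM scales. Over all genes the KO change called 4588, and 5738 with the covariate and 942 on log2(TPM + 1), the highest and lowest of all alternatives. The HET change called 1174, with a lowest count of 109 on log2(TPM + 1) and a highest of 2353 in a fit without 1 library. Leaving out 1 library gave 0 to 1 (KO, day 0), 0 to 3 (KO, day 3), 3 to 6 (KO, day 7), 1 to 6 (HET, day 7), 2 to 4 (HET, day 0 to 3), 2 to 6 (HET, day 3 to 7), 4 to 7 (KO, day 3 to 7), 2 to 5 (change in KO) and 1 to 4 (change in HET). The share of all genes called in the first 4 of these ran from 1.39% to 2.48%, 14.6% to 26.4%, 23.4% to 44.0% and 7.63% to 34.6%. For HET it ran from 41.0% to 54.4% over days 0 to 3 and from 34.2% to 47.8% over days 3 to 7. In KO from day 3 to day 7 the alternatives called 4496 to 11510 of all genes, beside 10555 in the fit used above. The sign turned in WT from day 0 to day 3 for SREBF2 (-0.69 and -0.71 on the TPM scales), INSIG1 (-0.42 and -0.44) and IDI1 (-0.13 and -0.14). With the share of small structural RNAs as a covariate IDI1 was at -0.029 there. SREBF2 was at -0.025 there on TPM without the small RNAs. Differences that were not called changed sign under at least 1 alternative that kept all libraries for 7 of the 8 genes in KO against HET at day 7, for 4 in KO against HET and KO against WT at day 3 and in the KO and HET interactions for the first interval, for 3 in HET against WT at days 0 and 3 and between those days in HET, and for 1 each in the KO course over both intervals and the WT course over the second. In KO against HET at day 7 the median of the 8 was 0.03, and -0.24 on log2(TPM + 1). The cause was not tested.

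Over all genes the replicate block called 1895 in HET against WT at day 3 (708 without it) and 689 at day 0 (333 without it). In KO against WT it called 8138 at day 3 (4649 without it). Of all genes, KO against WT at day 7 called 7070, and 1007 on log2(TPM + 1), and HET called 3129 and 271.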
